A study of Arabidopsis thaliana with 27 samples.

Results

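A set of 81 probe sets was lower through the first 36 h of tracheary element formation in cultured cells of Arabidopsis thaliana than while the secondary wall was laid down. Tracheary elements are the water-conducting cells of xylem, which build a patterned secondary wall of cellulose, xylan and lignin inside the primary wall and then die and empty. In these cells the genes for wall polymers, wall-modifying enzymes and the proteases and nucleases of the later autolysis are known to be switched on together by a small group of NAC and MYB transcription factors. Pectin-degrading enzymes, cupredoxins (small copper proteins of the cell surface) and aspartic proteases are other families known from xylem.

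The members were chosen from their values among 22743 tested probe sets. For each probe set the mean of the 3 arrays was taken at each time. The average of the 60 h, 72 h and 84 h means had to exceed the highest of the 0 h, 12 h, 24 h and 36 h means by at least 1.5 log2 units, and the 24 h mean had to lie less than 2 above the 0 h mean. This excess is called the size below. The rule was met by 86 probe sets (0.378% of those tested), of which 5 belonged to IRX15, PRX66, DMP4, AT1G79620 and AT3G52900 and were left out. IRX10, PRX72 and PASPA3 were also to be left out and did not meet the rule. Of the 81 members, 33 had 1 gene in the array annotation and 48 are not listed there and stay unnamed. The members just inside the threshold were AT3G13630, AT5G48740 and AT5G24510, with sizes of 1.51, 1.52 and 1.53. With the genes to be left out set aside, the probe sets just outside it, 256025_at, 250322_at and 256673_at, had 1.49, 1.47 and 1.43. IRX10 had 1.48.

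Cells of a habituated suspension culture of ecotype Col-0, 7 days old, were moved into fresh MS medium with 3% sucrose that held 6 µg/ml NAA (an auxin), 1 µg/ml BAP (a cytokinin) and 4 µM epibrassinolide (a brassinosteroid). RNA was sampled at intervals of 12 h, the last at 96 h, from time-courses A, B and C, which were run independently, so that 27 arrays, 1 per sample, gave n = 3 at each of 9 times. The labels give dividing cells at 0 h, loss of division with a start of expansion at 12 h and 24 h, early differentiation at 36 h, cells that do not yet deposit secondary wall at 48 h, its deposition from 60 h to 84 h, and its completion with preparation for death at 96 h. All groups carry the same medium and hormones, and the share of cells that differentiated is not given in the sources used here. More cells of a type and more RNA per cell cannot be told apart in such bulk samples.

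Of 17 marker genes chosen for tracheary elements and 3 for fibres, the annotation names none on the array, so the label of the cells could not be checked with them. SWEET11, the measured one of 8 phloem markers, stayed between 0.31 and 1.18 log2 units on all 27 arrays, near the array medians of 0.85 to 1.00. The mitotic kinases AUR1 and AUR2, the measured ones of 8 markers of dividing cells, lay between 1.57 and 5.74. AUR1 averaged 5.20 at 0 h, 1.85 at 12 h, 4.40 at 60 h, 5.59 at 72 h and 5.38 at 84 h. AUR2 averaged 4.73, 1.86, 4.12, 5.22 and 5.09 at the same times. Both means were thus slightly higher at 72 h and 84 h than at 0 h, the time labelled as dividing cells. These differences were not tested. They are of the order of limma's SE of a difference between times, 0.30 for AUR1 and 0.31 for AUR2. The GAPDH control signal at the 3′ end of the transcript minus that at its 5′ end, a measure that grows as RNA is degraded, was 2.99 to 4.38 on the 0 h, 60 h, 72 h, 84 h and 96 h arrays of time-course B and at most 1.89 elsewhere. At 96 h the array of time-course A stood apart from those of B and C in the members, as described below, and results at 96 h are given with and without it.

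The sizes ran from 1.51 to 5.62 log2 units with a median of 2.53. All 9 arrays of 60 h to 84 h lay above all 12 of 0 h to 36 h for 70 members (0.576% of all probe sets). For 30 members the size was 3 or more and for 27 it was under 2. These values chose the members and are a description. Most members started near the bottom of the scale, since the highest mean before 48 h was below 1.00, the highest array median, for 44 of the 81. The largest size belonged to the unnamed probe set 262796_at, which read 6.89 in A, 7.17 in B and 7.21 in C at 60 h, against 0.05 to 0.71 on the 12 arrays from 0 h to 36 h. A further 7 members had been above 4 in at least 1 mean before 48 h, among them the cupredoxin gene AT2G15780 (4.78 at 36 h) and ACLA-2 (4.12 at 0 h), which encodes a subunit of ATP-citrate lyase, the enzyme that makes acetyl-CoA outside organelles.

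**Figure D1:**
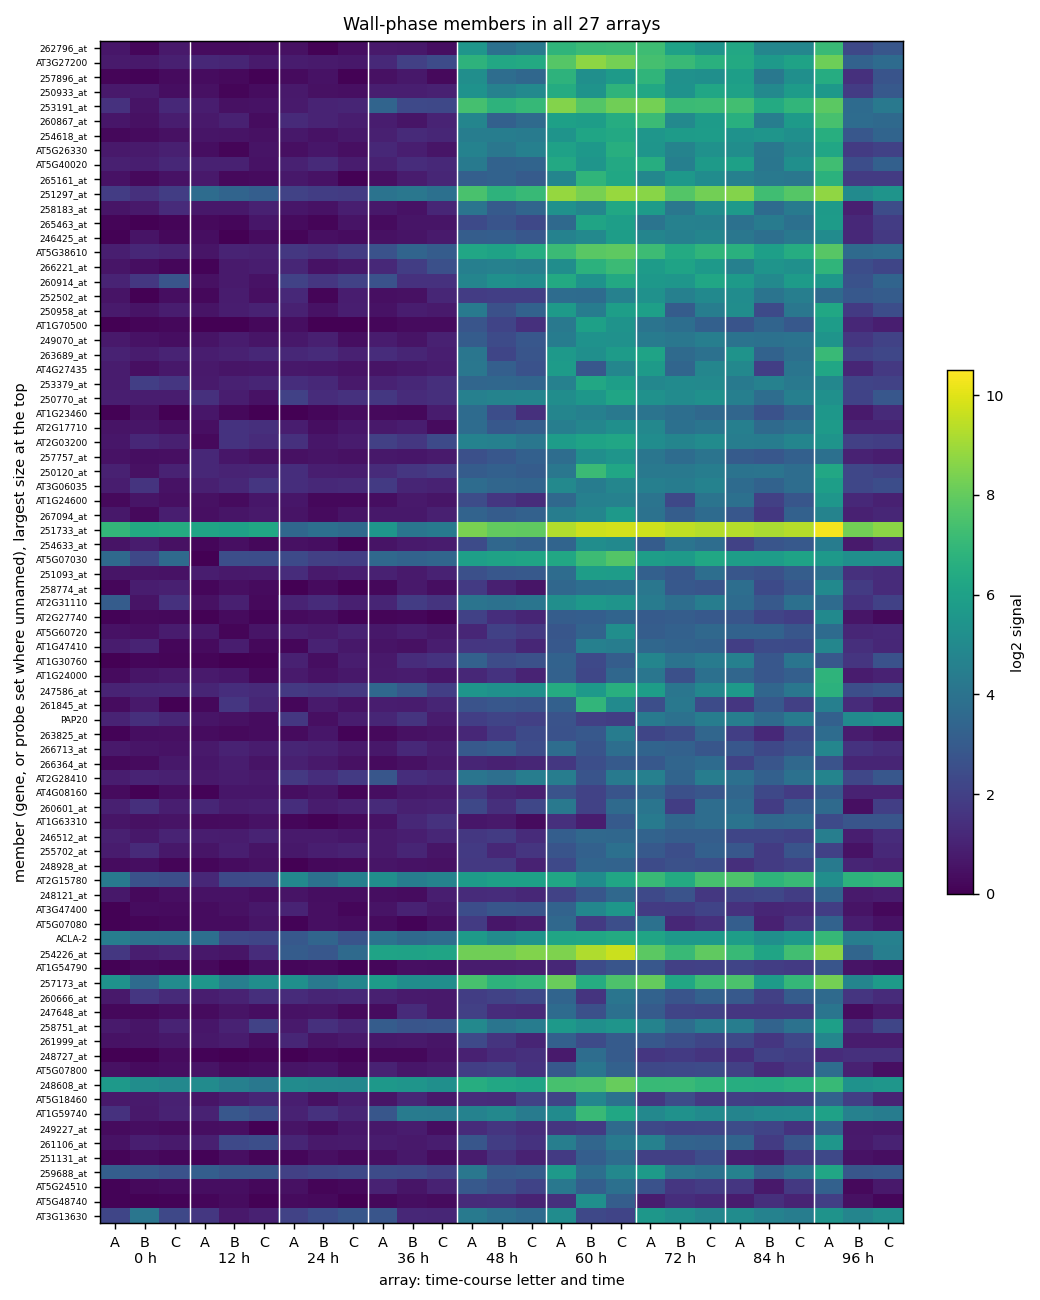
Log2 signal of the 81 members (rows, largest size at the top, probe set ID where no gene is named) on all 27 arrays (columns, grouped by time, with the time-course letter under each). Most rows are dark from 0 h to 36 h and bright from 48 h to 84 h, and at 96 h the column of time-course A stays bright while those of B and C are darker.

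A time-course that took no part in choosing gave a check on the size. Of 79 probe sets that met the rule on the means of B and C, 60 had a size of at least 1.5 in time-course A, against 0.396% of all tested probe sets. Of 86 chosen from A and C, 61 did so in B, against 0.352% of all. Of 80 chosen from A and B, 71 did so in C, against 0.400% of all. The median sizes in the time-course left out were 2.52, 2.08 and 2.80, against medians of -0.25, -0.28 and -0.25 over all probe sets. The high GAPDH differences of time-course B fall on its wall-phase arrays, and their part in its lower sizes was not tested.

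**Figure D2:**
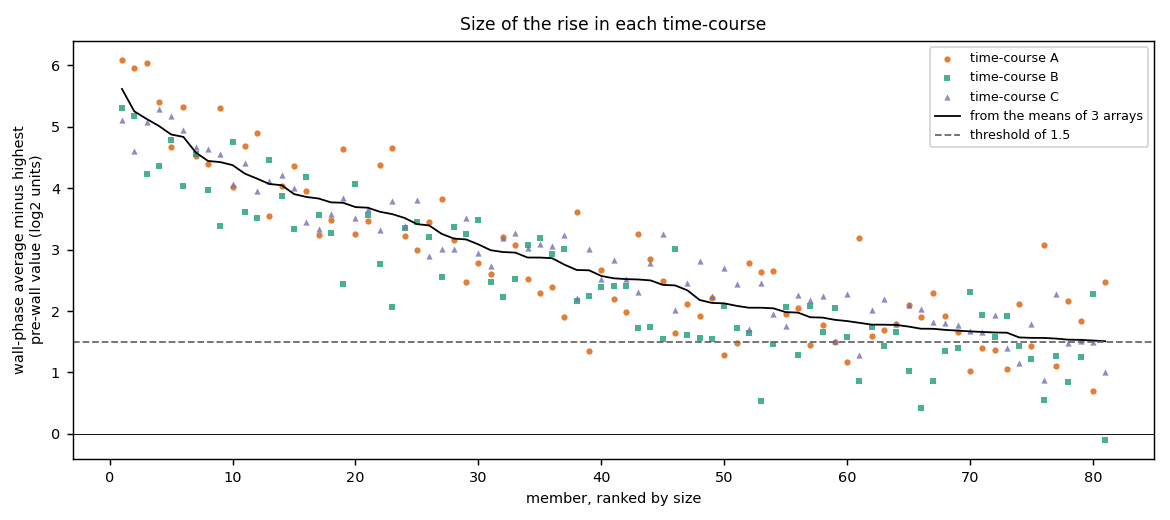
Size of the rise (wall-phase average minus the highest value from 0 h to 36 h, log2 units) for the 81 members ranked by size on the x axis, in each time-course (coloured points) and from the means of 3 arrays (black line), with the threshold of 1.5 dashed. All 81 sizes are above 0 in A and C, and 80 are in B, where AT3G13630 is the exception at -0.09.

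Among the named members, 3 encode cupredoxins. AT3G27200, the named member with the largest size (5.25), averaged 0.80 ± 0.11 log2 units at 0 h, 1.00 ± 0.23 at 12 h, 0.75 ± 0.07 at 24 h, 1.87 ± 0.61 at 36 h, 6.49 ± 0.26 at 48 h, 8.26 ± 0.49 at 60 h, 7.07 ± 0.37 at 72 h and 6.04 ± 0.35 at 84 h (SD, n = 3 each). At 96 h its arrays read 8.19 in A, 3.28 in B and 3.66 in C. The jump between 36 h and 48 h was common to the 3 time-courses, and the arrays parted at 96 h. AT5G26330 followed the same course, with 0.87 ± 0.28 at 36 h, 4.46 ± 0.26 at 48 h and 6.07 ± 0.49 at 60 h, and its 96 h arrays read 6.19 in A, 1.84 in B and 2.02 in C. AT2G15780 differed from both: it averaged 5.90 ± 0.14 at 48 h and 7.17 ± 0.38 at 84 h, and at 96 h it was lower in A (5.18) than in B (6.78) and C (6.90).

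Another 4 named members belong to families that act on pectin, the gel of the primary wall and middle lamella. AT1G70500 and AT1G23460 belong to the polygalacturonase family, whose enzymes cut pectin, AT3G47400 to the pectin methylesterases, which remove its methyl groups, and AT5G38610 to the inhibitors of invertases and pectin methylesterases. AT1G70500 had 0 to 0.41 on the 12 arrays before 48 h, 2.13 ± 0.64 at 48 h, 5.21 ± 0.88 at 60 h, 3.67 ± 0.42 at 72 h and 2.99 ± 0.34 at 84 h (SD, n = 3 each). AT1G23460, read by a probe set that may also bind related transcripts, reached 4.54 ± 0.25 at 60 h and 3.13 ± 0.42 at 84 h. They stood at 5.79 and 5.57 in A at 96 h, while B and C lay between 0.77 and 1.23. AT5G38610 started earlier, at 3.03 ± 0.37 at 36 h and 6.26 ± 0.23 at 48 h, and reached 7.62 ± 0.39 at 60 h. AT3G47400 was back under its 48 h mean by 72 h, with 2.66 ± 0.17 at 48 h, 4.59 ± 1.14 at 60 h, 1.92 ± 0.17 at 72 h and 1.27 ± 0.19 at 84 h.

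Genes tied to xylan and wall acetylation were represented by AT4G08160 (XYN3), of the xylanase family, and AT2G31110 (TBL40), of a family that adds acetyl groups to wall polysaccharides. AT4G08160 averaged 1.24 ± 0.41 at 48 h, 2.50 ± 0.37 at 60 h, 2.93 ± 0.44 at 72 h and 2.54 ± 0.84 at 84 h (SD, n = 3 each). AT2G31110 averaged 4.01 ± 0.10 at 48 h, 5.41 ± 0.19 at 60 h and 3.48 ± 0.50 at 84 h. Its 0 h arrays lay far apart, at 3.06 in A, 0.56 in B and 1.5 in C, so that its size in A was 1.35 against 2.25 in B and 3.01 in C.

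Aspartic proteases of the pepsin type were represented by AT2G03200 and AT5G07030. AT2G03200 stood at 2.01 ± 0.32 at 36 h, 4.46 ± 0.26 at 48 h and 6.04 ± 0.20 at 60 h (SD, n = 3 each). AT5G07030, listed at 0 in A at 12 h beside 2.52 in B and 2.47 in C, averaged 3.16 ± 0.77 at 0 h and 2.09 ± 0.22 at 24 h. It stood at 3.45 ± 0.11 at 36 h, near its 0 h level, and reached 7.06 ± 0.72 at 60 h. At 96 h its arrays lay close together, at 5.63, 5.23 and 5.19. Among other enzymes, AT1G30760, of the berberine bridge enzyme family of oxidoreductases, reached its highest mean at 72 h (4.39 ± 0.39). AT5G07080, of an acyltransferase family, had 3.56 in A, 1.77 in B and 2.53 in C at 60 h and 3.92, 1.18 and 1.46 at 72 h, with A the highest at both times. AT1G54790, a GDSL lipase, and AT5G07800, a flavin monooxygenase, reached 2.28 ± 0.48 at 72 h and 3.42 ± 0.63 at 60 h. PAP20, a purple acid phosphatase, was high late, with 2.19 ± 0.42 at 60 h, 4.22 ± 0.29 at 72 h and 4.16 ± 0.46 at 84 h.

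The remaining named members were spread over other families. AT5G40020, of the thaumatin family, had a size of 4.43, AT4G27435 of 3.58, AT2G17710 of 3.26, and AT3G06035, a membrane-anchored glycoprotein, of 2.99. AT1G24600, AT2G27740 (a golgin-related protein), AT5G60720, AT1G47410, AT1G24000 (of a lipid transport superfamily) and AT2G28410 had sizes between 2.09 and 2.96. AT1G63310, AT5G18460, AT1G59740 (NPF4.3, a transporter of the nitrate and peptide transporter family), AT5G24510 (an acidic ribosomal protein), AT5G48740 (a leucine-rich repeat kinase) and AT3G13630 had sizes between 1.51 and 2.04. AT4G27435 reached 5.72 in A, 3.42 in B and 4.80 in C at 72 h, and AT5G48740 1.45 in A, 5.21 in B and 3.09 in C at 60 h. In AT4G27435 time-course B was the lowest at 60 h, 72 h and 84 h, whereas in AT5G48740 it was the highest at those times.

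**Figure D3:**
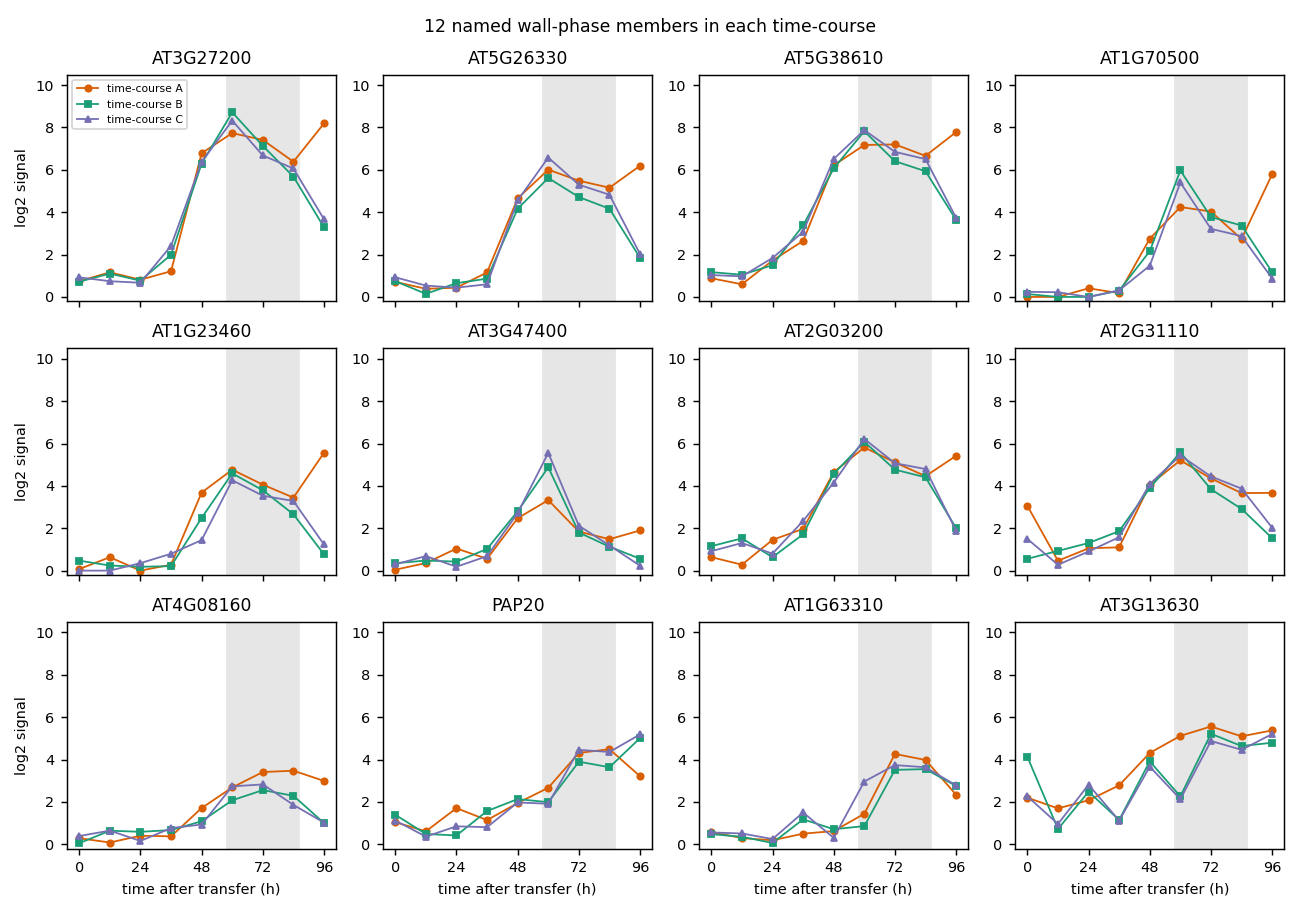
Log2 signal (y axis) against time after transfer (x axis, h) for 12 named members, with 1 line for each time-course and the times of wall deposition shaded. The upper 7 panels, from AT3G27200 to AT2G03200, climb to 48 h and peak at 60 h in B and C, PAP20 and AT1G63310 climb after 60 h, and at 96 h A lies above B and C in most panels but not for PAP20 and AT1G63310.

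The 48 h arrays, which the rule did not use, were taken before wall deposition by the labels, and most members were already up in them. The 48 h mean was above the highest earlier mean for 80 of 81 members, AT1G63310 being the exception (0.55 against 1.06 at 36 h). All 3 arrays of 48 h lay above all 12 earlier arrays for 73 members, against 1.19% of all probe sets. Since the rule chose members for low values at the earlier times, this contrast is not independent of it. On the log2 scale 57 members had covered at least 50% of their rise at 48 h, with a median of 59.9%. AT3G47400, AT5G24510 and AT2G28410 had covered 104%, 108% and 112%, and AT5G07030 and AT3G27200 90.7% and 87.8%. AT1G24000 (21.0%), AT1G54790 (27.5%), AT5G60720 (30.0%) and AT4G08160 (31.2%) had covered the least among named members other than AT1G63310.

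Within the wall phase most members were highest at its start in time-courses B and C but not in A. The 60 h, 72 h and 84 h arrays all entered the rule, and a member with 1 very high time could pass through it alone, so that the differences between these times are a description. The 60 h mean was the highest of the 3 for 68 of 81 members, against 40.8% of all probe sets. By time-course 60 h was the highest for 37 members in A, 63 in B and 70 in C, against 35.6%, 38.3% and 40.4% of all, and in A 72 h was the highest for 39. At 84 h the members lay at a median of -1.15 log2 units relative to 60 h, against -0.01 over all probe sets, and the medians in A, B and C were -0.54, -1.39 and -1.42. Members down by at least 1 numbered 17 in A, 53 in B and 57 in C, against 0.664%, 3.27% and 2.22% of all probe sets, and members up by as much 5, 4 and 2, against 1.13%, 4.66% and 2.76% of all. In all 3 time-courses 57 members were lower at 84 h than at 60 h (18.0% of all probe sets) and 5 were higher (17.3% of all): AT1G30760, AT1G63310, AT2G15780, PAP20 and 266364_at. At 72 h the median relative to 60 h was -0.52, with 0.09 in A, -0.68 in B and -1.0 in C.

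A time-course that took no part in choosing was again set beside these values, a comparison added after seeing the data. Of the 79 probe sets chosen from B and C, 56 were lower at 84 h than at 60 h in A, with a median of -0.51, and 35 were highest at 60 h. Of the 86 chosen from A and C, 71 were lower at 84 h in B, with a median of -1.25, and 63 were highest at 60 h. Of the 80 chosen from A and B, 75 were lower at 84 h in C, with a median of -1.41, and 70 were highest at 60 h. Of all probe sets, 51.5%, 48.8% and 51.0% were lower at 84 h in A, B and C. At 72 h relative to 60 h the medians of the same lists were 0.10 in A, -0.54 in B and -1.0 in C. Time-course A again had the medians nearest to 0.

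Among named members, calls by limma at these times picked AT3G47400, AT5G24510, PAP20 and AT1G63310. With the time-course as a replicate block AT1G30760, AT2G31110 and AT5G48740 were called as well. Unnamed members were also called down at 84 h, with and without the block. All called members are extremes chosen on the same arrays, so the values below describe the members printed alone. AT3G47400 had 84 h signals of 1.48 in A, 1.13 in B and 1.19 in C, against 3.33, 4.88 and 5.56 at 60 h. The 84 h arrays lay below the 60 h arrays in every time-course, by 1.85, 3.75 and 4.37. The 72 h and 84 h means of AT3G47400 alone would not have met the threshold. The same holds for several other members, which passed the rule through their 60 h arrays. AT5G24510, AT5G48740, AT5G18460, AT5G07800 and AT1G59740 are examples, and unnamed members are among them as well. AT5G24510 averaged 1.38 ± 0.59 at 84 h, against 3.74 ± 0.53 at 60 h (SD, n = 3 each), and was likewise highest at 60 h. PAP20 had 4.49, 3.64 and 4.36 at 84 h, against 2.67, 1.99 and 1.91 at 60 h. AT1G63310 had 3.98, 3.55 and 3.64 at 84 h, against 1.44, 0.86 and 2.96 at 60 h. In PAP20 and AT1G63310 the 84 h arrays lay above all those of 60 h, and 72 h was close to 84 h, at 4.31, 3.90 and 4.46 in PAP20 and 4.27, 3.51 and 3.74 in AT1G63310. AT1G30760 had 4.78, 4.00 and 4.38 at 72 h, against 3.30, 2.30 and 3.11 at 60 h.

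Counts from limma with Benjamini-Hochberg adjustment over all probe sets are given for these times without reading anything from them, since the arrays entered the rule. At 84 h against 60 h 2 members were called up (0.523% of all probe sets) and 4 down (0.501% of all), and with the time-course as a replicate block 2 up (1.13% of all) and 8 down (0.831% of all). At 72 h against 60 h 2 were called up (0.303% of all) and 1 down (0.361% of all), and with the block 3 up (0.682% of all) and 2 down (0.536% of all). Without time-course A the counts were 2 up (2.19% of all) and 50 down (2.02% of all) at 84 h, and 2 up (1.63% of all) and 33 down (1.58% of all) at 72 h. Without B limma called 0 members in either direction at both times. At an unadjusted p under 0.05 that fit had 3 members up and 10 down at 84 h (708 and 764 of all 22743 probe sets). At 72 h it had 4 up and 3 down (524 and 647 of all). Without C limma called 1 up and 0 down at each time (1 and 1 of all at 84 h, 2 and 1 at 72 h). At an unadjusted p under 0.05 it had 11 down at 84 h (713 of all) and 3 down at 72 h (825 of all). Leaving out the 60 h array of A alone gave 14 down at 84 h (444 of all) and 6 down at 72 h (365 of all).

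Neither the 96 h nor the 48 h arrays were used by the rule, so their comparison is independent of it. It asked whether the members, once walls were complete, stood above or below their level just before deposition, and the time-courses gave opposite answers. In A the members lay at a median of 1.72 log2 units at 96 h relative to 48 h, with 63 of 81 up by at least 1 (4.24% of all probe sets) and 0 down by as much (2.48% of all). In B the median was -0.99, with 39 members down by at least 1 (3.20% of all) and 2 up (2.77% of all). In C it was -0.84, with 33 down (1.51% of all) and 4 up (2.87% of all). For 61 members 96 h was above 48 h in A and below it in both B and C, a pattern held by 11.9% of all probe sets. The medians over all probe sets were within 0.02 of 0.

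**Figure D4:**
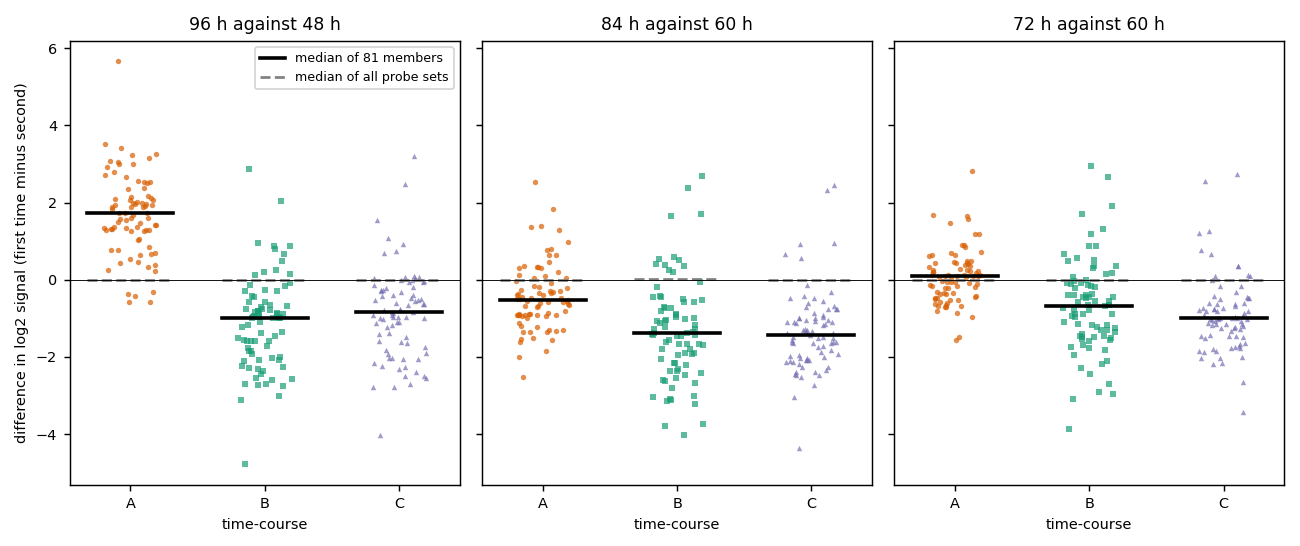
Difference in log2 signal between 2 times (y axis, first time minus second) for each of the 81 members in time-courses A, B and C (x axis), for 3 comparisons, with the median of the members as a black bar and that of all probe sets dashed. The medians at 96 h against 48 h are 1.72 in A, -0.99 in B and -0.84 in C, and those at 84 h against 60 h are below 0 in all 3.

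The parting at 96 h ran through nearly the whole set. The median member signal at 96 h was 5.27 in A, 1.53 in B and 1.89 in C, and in A it exceeded that of every other time (4.43 at 60 h). The 96 h array of A was above those of B and C for 77 of 81 members (33.2% of all probe sets) and by at least 2 log2 units for 59 (0.994% of all). In A 65 members were higher at 96 h than in the average of their wall-phase arrays, against 42.9% of all probe sets. In B it was 4 members (49.4% of all), namely AT1G63310, AT2G15780, AT3G13630 and PAP20, and in C AT3G13630 and PAP20 alone (48.0% of all). All 3 of the 96 h arrays lay above all 12 arrays of 0 h to 36 h for 42 members (0.664% of all). The median SD of the members was 1.96 at 96 h and at most 0.63 at any other time. The members in which A was not the highest were PAP20, AT1G63310, AT2G15780 and 248727_at. AT1G24000 had the widest gap among named members, with 6.85 in A, 0.80 in B and 1.02 in C at 96 h. The GAPDH differences of these arrays were 1.65 in A, 2.99 in B and 1.41 in C, and the part of RNA quality in the parting was not tested.

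Over all 3 time-courses limma's test of 96 h against 48 h called 2 members up (0.651% of all probe sets rose) and 1 down (0.585% of all fell), around a member median of -0.02. With the replicate block 3 rose (1.31% of all) and 2 fell (1.42% of all). PAP20 had 3.21, 5.02 and 5.19 at 96 h, against 1.95, 2.13 and 1.98 at 48 h, a rise of 2.45 (SE 0.39, limma adjusted p = 0.00162). AT1G63310 had 2.34, 2.75 and 2.78 at 96 h, against 0.62, 0.71 and 0.30 at 48 h, a rise of 2.08 (SE 0.34, limma adjusted p = 0.0024). For both, every 96 h array was above every 48 h array. AT3G47400 had 1.90, 0.56 and 0.23 at 96 h, against 2.47, 2.80 and 2.72 at 48 h, with no overlap, and fell by 1.77 (SE 0.41, limma adjusted p = 0.0314). That call was lost without any 1 of the 48 h arrays, or without the 96 h array of B or C. The limma adjusted p was then 0.0776 to 0.189. Without the 9 arrays of B or of C limma called 0 members either way. At an unadjusted p under 0.05 there were 5 up and 2 down without B (922 and 970 of all 22743 probe sets). Without C there were 4 up and 1 down (604 and 729 of all).

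The 96 h array of A was left out because it stood high in these members, so falls without it follow in part from that choice. Its omission left the arrays of B and C alone at 96 h. With them 31 members fell against 48 h (1.28% of all probe sets fell) and the same 2 rose (1.65% of all rose). The member median was -1.09. Without the 96 h array of B or of C instead, 0 members fell (50 and 87 of all 22743 probe sets), with medians of 0.48 and 0.35. Without the array of A, 12 named genes were among those that fell. They included both cupredoxins that peaked at 60 h, AT3G27200 by 3.01 (SE 0.31) and AT5G26330 by 2.53 (SE 0.28). They also included AT5G38610 (-2.58), AT1G23460 (-1.54) and AT3G47400 (-2.27) of the pectin group, the protease gene AT2G03200 (-2.51) and AT2G31110 (-2.23). The other named genes were AT2G17710, AT3G06035, AT2G27740, AT5G07800 and AT5G24510. AT3G13630 was above its 48 h level at 96 h in all 3 time-courses, with 5.38, 4.80 and 5.21 at 96 h, against 4.31, 3.91 and 3.67 at 48 h, as were PAP20, AT1G63310 and the unnamed 251733_at, 252502_at and 258774_at (16.2% of all probe sets). AT2G31110, AT3G47400 and AT5G07030 were below it in all 3 (19.6% of all).

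Few other genes of the pathway could be set beside the members. Of 135 genes listed for secondary wall cellulose, xylan, lignin, xylem transcription factors, cell death, wall patterning, phloem and dividing cells, 21 have a probe set with 1 gene in the annotation, and none of these is a member, IRX15, PRX66 and DMP4 because they were left out although they met the rule. At 96 h against 48 h limma called 1 of the 7 measured lignin genes down, the peroxidase gene PRX52 (-2.71, SE 0.63, adjusted p = 0.0349), and at 84 h against 60 h 1 down, PRX72 (-1.87, SE 0.33, adjusted p = 0.00535), which also fell at 72 h against 60 h (-1.67, SE 0.33, adjusted p = 0.0196). None of the 4 measured xylan genes, 4 cell death genes, 2 wall patterning genes, 2 markers of dividing cells, the phloem marker SWEET11 or C3H14, the measured transcription factor gene, was called by limma in these 3 comparisons.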

How the data were processed

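The deposited values are the authors' log2 signals after RMA, per the submitters' processing notes. RMA corrects background, normalizes between arrays and summarises probe sets. The sources used here give neither its version nor its settings, and base 2 was taken from the range of the values (0 to 12.3). In every array 272 to 978 values are exactly 0, a floor whose origin is not stated. It was met by 10 members on an array before 48 h. Precision is limited by how many arrays there are.

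The array holds 22810 probe sets, of which 64 controls and 3 that lack a value on an array were not used. Groups and time-course letters come from the sample titles. The array annotation covers 14016 probe sets (13513 with 1 gene, 503 with several). Another 8729 tested probe sets are not listed. All 33 named members matched a RefSeq gene of TAIR10.1, used for names alone. Roles of genes are background knowledge, and the families were formed after the values were known.

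limma 3.58.1 in R 4.3.3 fitted 1 mean per time to all 27 arrays (lmFit, eBayes), with Benjamini-Hochberg adjustment over 22743 probe sets and a threshold of 0.05. The fit was tested on simulated data. Contrasts among times that the rule used are descriptions, and limma's counts for 84 h and 72 h against 60 h, planned as tests, are given as counts alone because those arrays entered the rule. The members and lists were chosen with earlier results of these data known. Named are the 15 named members with the largest size, called members, those with the highest and lowest share of the rise at 48 h and 96 h and those next to the threshold. The other 7 named members, and the unnamed ones printed, were added after their values were seen.

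The main fit had no term for the time-course, so its SE and adjusted p leave the pairing of samples unused. With the replicate block limma again called PAP20 and AT1G63310 up and AT3G47400 down at 96 h against 48 h. Samples with the same letter are paired, because a letter stands for 1 time-course in the series' design text. Their departures from the mean of each time correlated at a median of 0.25 over 108 pairs of arrays that share a letter. The median was -0.12 over 216 pairs that share neither letter nor time. Since departures at a time sum to 0 over its arrays, the negative value follows from the positive one and is no separate evidence of pairing. Alternatives were array scaling, the replicate block, a filter on dim probe sets, array weights, fits to 6 arrays, leaving out arrays or time-courses, other settings of the rule and, chosen after seeing the data, the GAPDH difference as a covariate.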

Additional observations from a re-analysis of the deposited data

How the results depend on the processing

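The number of members was 54 to 130 over all settings of the rule (130 with a size of at least 1), and 79, 86 and 80 without replicate A, B or C, of which 72, 78 and 77 were among the 81. The member median of 96 h against 48 h (-0.02) was -1.09 without the 96 h array of A, 0.48 without that of B, 0.35 without that of C and -0.61 with array weights, all within an SD between time-courses that the array of A itself widens. Members above 0 numbered 39, or 9 without the 96 h array of A. Counts of called members moved as well. With the replicate block 2 members fell at 96 h against 48 h, and 8 and 2 at 84 h and 72 h against 60 h. Of all 22743 probe sets 1.42%, 0.831% and 0.536% fell. With array weights the counts of falls were 17, 26 and 5 (413, 558 and 278 of all), and 4 rose at 72 h (179 of all). With dim probe sets left out 2 fell at 96 h and 7 at 84 h (139 and 103 of the 11371 kept). With the GAPDH difference as a covariate 8 fell at 84 h and 2 at 72 h (185 and 136 of all). In fits to the 6 arrays compared, limma called 1 up (20 of all) and 0 down (44 of all) at 96 h. It called 0 in either direction at 84 h and 72 h. At an unadjusted p under 0.05 these fits had 3, 48 and 20 down (1508, 759 and 683 of all). They had 3 and 7 up at 84 h and 72 h (994 and 952 of all). Leaving out arrays or whole time-courses gave 0 to 2 up and 0 to 31 down at 96 h (2 to 431 and 8 to 350 of all). At 84 h it gave 0 to 3 up and 0 to 50 down (1 to 499 and 1 to 460 of all). At 72 h it gave 0 to 4 up and 0 to 33 down (0 to 371 and 0 to 365 of all). The high counts of falls come without time-course A or its 96 h array. Among these changes of sign, AT3G06035 and AT2G27740 were called down without the 96 h array of A (-1.17 and -1.09), and AT2G27740 also without all of A (-0.82). Over all such omissions they ranged from -1.17 to 0.66 and from -1.09 to 1.28. The cause of these shifts was not tested.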

Other observations

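The 96 h arrays were also compared over the 22657 probe sets that did not meet the rule. Across these probe sets, which are not independent replicates, the 96 h array of A correlated with the mean of B and C at r = 0.966 at 48 h, 0.961 at 60 h, 0.974 at 72 h, 0.970 at 84 h and 0.957 at 96 h. The 96 h array of B correlated with the mean of A and C at r = 0.961 at 48 h, 0.962 at 60 h, 0.977 at 72 h, 0.980 at 84 h and 0.979 at 96 h. That of C correlated with the mean of A and B at 0.976, 0.965, 0.983, 0.987 and 0.982 at the same times. With the 0 h mean of the other time-courses the 96 h arrays of A, B and C correlated at 0.929, 0.967 and 0.975, the widest gap between A and the others. At 12 h these correlations were 0.918, 0.916 and 0.923, at 24 h 0.959, 0.954 and 0.966, and at 36 h 0.959, 0.956 and 0.969. At 96 h the share of the rise that was kept, on the log2 scale, had a median over the members of 129.4% in A, 15.9% in B and 15.1% in C. Among named members, AT5G07030 and AT5G07080 lie closest together in the gene order of TAIR10.1, with 4 protein-coding genes between them.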
